A study of Mus musculus with 400 samples.

Results

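Mrgprd non-peptidergic neurons were chosen by the level of 1 gene: a sorted single cell was a member if it held at least 200 CPM of the receptor gene Mrgprd (CPM scales a gene's signal to 1000000 per cell). Of 371 kept cells, 258 fell below that level and the rest, 30.5%, were members: the mouse Blue gave 32 of them, Red 35, Control 18, Control1 8, Control2 9 and Control6 11. The cells came from dissociated cervical dorsal root ganglia (DRG, levels C1-C8) of 6 naive mice of 6-12 weeks. These mice carry Nav1.8-Cre and R26CAG-floxStop-tdTomato (strain label Nav1.8-Cre.Ai14), so that the sodium channel gene Scn10a (Nav1.8) drives Cre and Cre switches on the red protein tdTomato. Cells with tdTomato were sorted singly and each was sequenced as its own library. The design therefore holds only cells with a history of Nav1.8-Cre activity. All mice were of 1 condition and none was treated, so every comparison was between classes of cells inside the same mice, and the mouse was the replicate. Run 1 held Blue and Red, run 2 Control, run 3 both Control1 and Control2, and run 4 Control6.

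Mrgprd neurons are small unmyelinated sensory neurons that end in the epidermis and are known for a part in mechanical pain and in itch to beta-alanine, a ligand of the receptor. They bind the lectin IB4, depend on the GDNF-family receptor Ret in adult life, and lack most of the peptides that mark peptidergic nociceptors. Their development is known to need the transcription factor Runx1. The neighbouring classes are itch neurons marked by Mrgpra3, or by Sst and Nppb.

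Because Runx1 acts through the DNA core TGTGGT, the 250 bases before the start of each gene were searched for it on both strands (TGTGGT or ACCACA, which do not overlap). Of the 5 marker genes of the class (Mrgprd, Lpar3, Prkcq, Grik1 and Agtr1a), 3 had a window in the RefSeq table of build GRCm38.p6, and 0 of these 3 held the core. They are shown with 1 of 2 windows of Synpr, a synaptic vesicle gene that was higher in Mrgprd cells and whose window holds the core, printed in capitals. All run 5′ to 3′ on the + strand.
Mrgprd, chr7:145314585-145314834: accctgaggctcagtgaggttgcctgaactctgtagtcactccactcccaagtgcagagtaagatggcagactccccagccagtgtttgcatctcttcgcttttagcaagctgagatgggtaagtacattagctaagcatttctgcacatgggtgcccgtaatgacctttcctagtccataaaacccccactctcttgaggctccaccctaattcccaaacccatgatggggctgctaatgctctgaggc
Lpar3, chr3:146220711-146220960: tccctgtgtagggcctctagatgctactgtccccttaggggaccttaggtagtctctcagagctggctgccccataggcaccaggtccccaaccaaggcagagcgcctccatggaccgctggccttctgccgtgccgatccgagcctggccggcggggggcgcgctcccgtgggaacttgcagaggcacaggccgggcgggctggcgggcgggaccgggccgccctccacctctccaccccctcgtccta
Prkcq, chr2:11172132-11172381: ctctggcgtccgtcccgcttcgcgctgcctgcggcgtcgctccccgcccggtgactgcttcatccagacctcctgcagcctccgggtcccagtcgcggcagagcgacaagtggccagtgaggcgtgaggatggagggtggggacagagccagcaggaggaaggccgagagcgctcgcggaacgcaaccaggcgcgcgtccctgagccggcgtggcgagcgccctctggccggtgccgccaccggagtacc
Synpr, chr14:13453708-13453957: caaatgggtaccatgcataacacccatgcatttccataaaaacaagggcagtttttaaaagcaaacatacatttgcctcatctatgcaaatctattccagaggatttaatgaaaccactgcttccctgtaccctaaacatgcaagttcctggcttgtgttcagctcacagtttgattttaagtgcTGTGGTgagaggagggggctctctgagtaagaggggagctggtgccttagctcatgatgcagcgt
In the Synpr window the core begins 65 bases before the start. Among windows of the 688 genes with an entry that were higher in Mrgprd cells than in other kept cells, 11.3% held the core, against 10.0% for the 854 lower genes, 10.6% for all 7158 tested genes and 14% for all 32851 windows. A match of these letters is no binding site, and its absence from a window says nothing of the factor.

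Of kept cells, Mrgprd cells were 25.4% for Blue and 27.3% for Red. The share was 36% for Control (18 of 50), 42.1% for Control1 (8 of 19), 39.1% for Control2 (9 of 23) and 44% for Control6 (11 of 25). The mean share was 35.7% (SD 7.72, n = 6 mice). The share over all cells had an exact binomial 95% interval of 25.8% to 35.4% for counting error only. Both mice of run 1 gave lower shares than the 4 mice of the other runs. These are shares of kept cells, and a cell was kept if it held at least 500 genes. That filter left out a larger part of the cells in each of these 4 mice than in Blue or Red. No cell left out held Mrgprd, so the filter raised the shares of these 4 mice more than those of run 1.

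**Figure D1:**
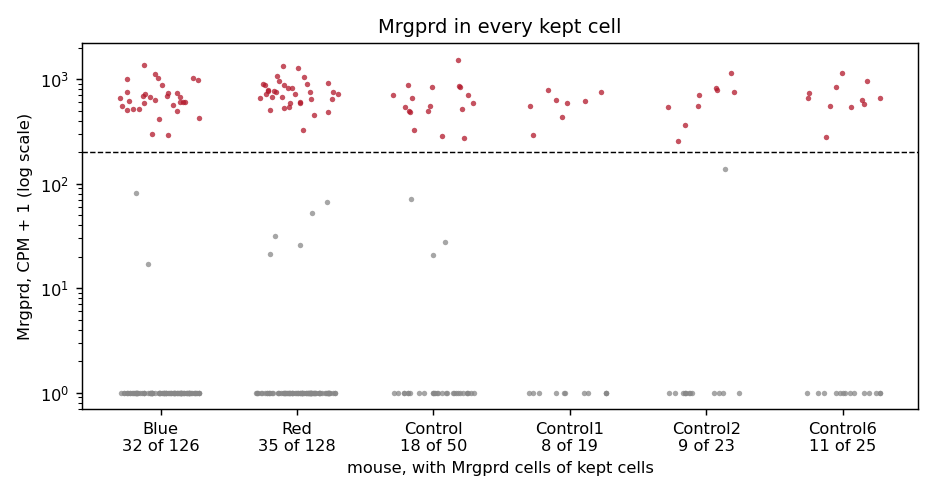
Mrgprd in each of the 371 kept cells (CPM + 1, log scale), by mouse; red points are Mrgprd cells, grey points other kept cells, and the dashed line marks 200 CPM. Most other cells sit at 0, and few cells lie between 0 and the line.

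The level of Mrgprd chose the cells and is given as a description. It was 0 in 247 cells and between 0 and 200 CPM in 11, with 138 and 79.9 CPM as the highest values below the threshold. The lowest members held 253 and 274 CPM, the median member 663 CPM and the highest 1523 CPM. A threshold of 100 CPM would add 1 cell and one of 400 CPM would remove 10. The median member rested on 30 Mrgprd counts, and 3 members had fewer than 5.

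The members' libraries were the deeper ones: their median was 46149 counts (1153 to 235754) and 7435 genes, and that of other cells 24651 counts and 6098 genes. In 2 members, both from Control, the total was under 5000 counts (1153 and 3067), and in the shallower 1 count equals 868 CPM. Means of Control can therefore rest on a few counts, and for Rspo2, Mrgpre, Scg2, Egr1, Il31ra and Meg3 the mean without such a cell is given below. RNA of satellite glia, the cells that wrap DRG neurons, also differed. The summed level of their 8 markers was 428 CPM in members (mean of mice, range 139 to 830) and 1235 CPM in other cells (82.4 to 2857), all 8 were detected in members, and 23 members (20.4%) held at least 500 CPM against 82 of 258 other cells (31.8%). Markers of Schwann cells summed to 874 CPM in members (722 to 1199) and 753 CPM in other cells (549.8 to 877).

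The markers fixed for other cell types were read in the same way. Macrophage markers summed to 8.61 CPM in members (range over mice 1.72 to 24.1) and to 4.91 CPM in other cells. Lyz2, C1qa, C1qb, C1qc and Csf1r were at 0 in members, and 23 members held a count of any of the 3 others. Lymphocyte markers summed to 0.109 CPM against 1.86 CPM in other cells, with 3 of the 5 in the tables at 0. Endothelial markers summed to 0.0902 CPM against 0.552 CPM, with 4 of 5 at 0. Markers of Sst and Nppb itch neurons summed to 35.1 CPM in members (0 to 153) against 891 CPM in other cells, with Nppb at 0. The highest of these, in Control, included 146 CPM of Il31ra, which came mostly from 3 counts in 1 cell. Peptidergic markers summed to 500 CPM (225 to 831) against 5936 CPM, and all 5 were detected. Of the members, 2 held at least 200 CPM of Mrgpra3, 27 of the substance P gene Tac1 and 53 of the CGRP gene Calca. The number with that much Sst, Nppb or Th was 0, which allows a share of up to 2.65% of cells by counting alone.

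The 4 other class markers followed Mrgprd in every mouse and are given with no test, since they were chosen as markers of these cells. Mrgprd itself ranged over the 6 mice from 582 to 756 CPM in members (median 671) and from 0 to 9.88 CPM in other cells. The gene lies on chromosome 7 from 145314835 to 145324086, on the + strand. Lpar3, a receptor for lysophosphatidic acid, ranged from 426 to 631 CPM in members (median 526) and from 5.11 to 39.5 CPM in other cells. Prkcq, protein kinase C theta, ranged from 227 to 307 CPM (median 249) against 0.753 to 24.3 CPM. Grik1, a kainate-type glutamate receptor subunit, ranged from 1257 to 1667 CPM (median 1331) against 76.2 to 161 CPM, and Agtr1a, an angiotensin receptor, from 96.2 to 152 CPM (median 115.6) against 0 to 14.4 CPM. For none of the 5 genes did the mice overlap between the classes. The rule fixed this for Mrgprd and the other 4 were chosen as markers, so it is no independent result. Grik1 was not limited to the class: cells with Th held 431 CPM (mean of Blue and Red, the mice with at least 3 such cells), while cells with Mrgpra3 held 40.8 CPM. Counts of Lpar3 were found in 98.2% of members, of Prkcq in 97.3%, of Grik1 in 99.1% and of Agtr1a in 93.8%. In other cells, at their lower median depth, these shares were 12%, 6.98%, 38% and 6.59%.

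Mrgprd cells were then set against the 258 other kept cells to ask what else separates them. Of 9061 genes tested, 1996 passed an adjusted p under 0.05 (22% of all genes), 875 higher in Mrgprd cells (9.66%) and 1121 lower (12.4%). The median log2 difference over all genes tested was −0.04 (all differences are on the log2(CPM + 5) scale, which shrinks those of weak genes). The same test against the 77 cells with at least 200 CPM of Mrgpra3, Sst or Nppb, the itch-marker cells, called 1317 of 8819 genes (14.9%), 791 higher (8.97%) and 526 lower (5.96%), with a median of 0.10. Both tests used limma with mouse as a block. Both comparisons share the Mrgprd cells and the itch-marker cells are among the other cells, so they are not independent.

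Among the genes higher than in other cells, the complement inhibitor gene Serping1 differed most. It ranged over mice from 264 to 457 CPM in Mrgprd cells (median 410) and from 19.9 to 70 CPM in other cells (median 43.6), a log2 difference of 3.13 (SE 0.20, adjusted p = 3.9e-08). All 6 mice were higher and the classes did not overlap. Klhl5 (3.09), Otoa (3.06), Ctxn3 (2.94), the Wnt agonist gene Rspo2 (2.94), the phosphatase gene Ppm1j (2.86) and Kcnab1 (2.83), a beta subunit of potassium channels, were also among the largest. Otoa, which encodes otoancorin, a protein known from the inner ear, ranged from 30.7 to 77.4 CPM against 0 to 4.94 CPM and had a count in 94 members (83.2%) against 3.88% of other cells. Rspo2 ranged from 242 to 583 CPM against 14.9 to 110 CPM. Its value in Control included 1 cell of 3067 counts at 6520 CPM, and the mean of that mouse without the cell was 234 CPM.

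On the other side, Adcyap1, which encodes the neuropeptide PACAP, ranged from 0 to 25.8 CPM in Mrgprd cells (median 0.938) and from 156 to 667 CPM in other cells (median 388), a difference of −5.41 (SE 0.39, adjusted p = 1.4e-07). It had a count in 6 members. Hpcal1, a neuronal calcium sensor gene, ranged from 0 to 16.8 CPM against 251 to 453 CPM (−5.30, SE 0.29), and the neurotrophin receptor gene Ngfr from 0 to 66.8 CPM against 303 to 503 CPM (−5.29, SE 0.34). Sst (−5.16), the semaphorin co-receptor gene Nrp1 (−4.995), Tmem176b (−4.79, which shares exons with Tmem176a), Pcp4l1 (−4.78) and the neuropeptide Y receptor gene Npy2r (−4.72) followed, lower in all 6 mice with no overlap. In build GRCm38, Serping1 lies on chromosome 2 (84765387 to 84775444) and Adcyap1 on chromosome 17 (93199017 to 93206537).

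**Figure D2:**
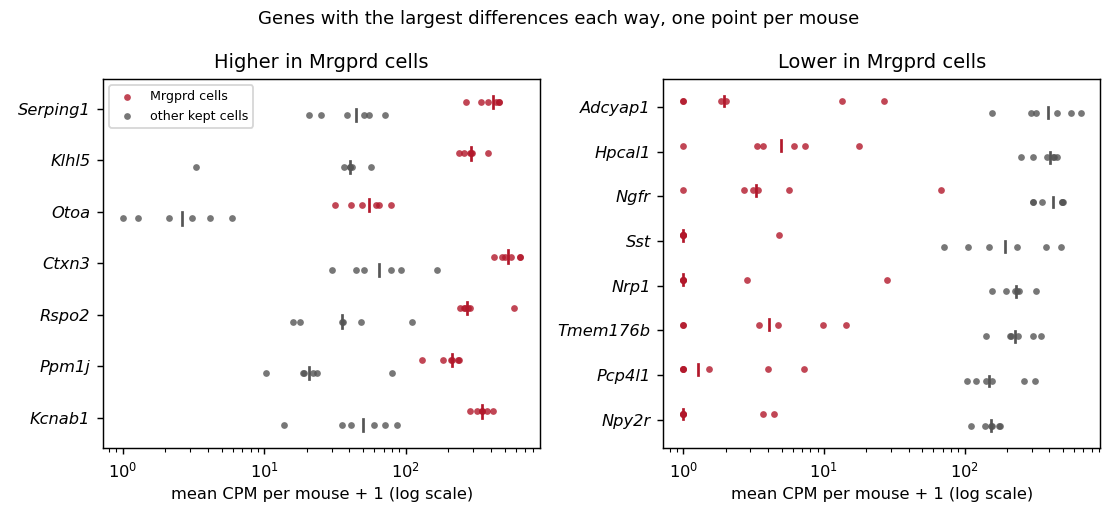
Mean CPM per mouse (+ 1, log scale) of genes with the largest differences each way against other kept cells; each point is 1 mouse (n = 6), red for Mrgprd cells and grey for other kept cells, and the short line is the median. In each gene shown the points of the classes do not overlap.

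A gene was tested if its mean over both classes reached 10 CPM, so the counts and medians of the lists describe the genes tested and include genes that passed only through the class where they were high. Of all genes tested, 9.66% were higher and 12.4% lower than in other cells. Against itch-marker cells these shares were 8.97% and 5.96%. A list count near such a share is no result about the list. Of 9 genes of GDNF-family and neurotrophin receptors, 2 were higher than in other cells and 5 lower (list median −0.59 against −0.04 for all genes). Gfra2, the neurturin co-receptor, ranged over mice from 487 to 671 CPM in Mrgprd cells, from 90.6 to 178 CPM in other cells and from 0 to 7.89 CPM in itch-marker cells. Its difference was 1.93 (SE 0.10) against other cells and 6.38 (SE 0.24, adjusted p = 9.8e-11) against itch-marker cells, the largest difference upward there under the naming rule. Gfra2 was not limited to the class, since cells with Th held 794 CPM. Ret, the signalling receptor, was higher by 1.01 (SE 0.10) and 1.33 (SE 0.12). Gfra3, the artemin co-receptor, was lower than in other cells by −3.35 (SE 0.30). Gfra1, the GDNF co-receptor, differed by −0.57 (SE 0.19, adjusted p = 0.044) from other cells and by −1.60 (SE 0.20) from itch-marker cells, a call that averaging the logs of single cells ended (−0.51, adjusted p = 0.30).

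Other Mas-related receptors were weak in the class. Of 17 genes, 4 were high enough to be tested against other cells and 1 of these, Mrgpra3, was called (−3.07, SE 0.31). Its level was 17.3 CPM in Blue, 11.8 CPM in Red and 0 in the other 4 mice. For 26.8% of its low values fractions of a count were found, so reads may be shared with related genes and the value is uncertain. The same holds for Mrgpra2a and Mrgpra2b, which did not pass by limma in either comparison. Against itch-marker cells, where limma gave −0.72 (adjusted p = 0.19) for Mrgpra2a and −0.84 (0.12) for Mrgpra2b, both passed with edgeR (adjusted p = 8.4e-04 and 7.9e-05), with DESeq2 (0.0092 and 0.0023) and in run 1 alone (0.014 and 7.7e-04). Mrgpre had a count in 69 members and differed by −0.44 (SE 0.41, adjusted p = 0.50). The Control mean of 169 CPM was 26.3 CPM without 1 cell of 3 counts, and without Control the difference was −0.99 and passed (adjusted p = 0.024). Mrgpre also passed as lower with edgeR (−0.70, adjusted p = 0.021), with at least 1000 genes per cell (−0.88, 0.020) and in run 1 alone (−0.65, 0.0058). Against itch-marker cells limma over all mice gave −0.46 (adjusted p = 0.55). There Mrgpre passed as lower with edgeR (adjusted p = 2.6e-04), with DESeq2 (0.015) and in run 1 alone (0.021).

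Of 35 receptors for lipids, amines and inflammatory mediators, 18 held less than 10 CPM in both classes. Of the 15 tested, 10 were lower than in other cells, 2 higher and 3 did not pass, and most of the lower ones reached the level only through the other cells. Of 13 tested, 8 were lower than in itch-marker cells with 1 higher. Htr1a, a serotonin receptor gene, had 0 counts over all members, against a range of 20.4 to 55.5 CPM in other cells (adjusted p = 1.2e-06). If the counts of all members are pooled, 3 counts would be 0.544 CPM, which is not the scale of the means per mouse. The serotonin receptor gene Htr1f ranged from 0 to 0.471 CPM against 27.2 to 101.2 CPM (−3.57, SE 0.29), S1pr1, a sphingosine-1-phosphate receptor, differed by −3.08 (SE 0.25), and Ptgir, the prostacyclin receptor, by −4.19 (SE 0.25). The higher genes were the prostaglandin receptors Ptgdr (2.42) and Ptger3 (1.53). Cysltr2, a leukotriene receptor gene, ranged from 0 to 8.94 CPM in Mrgprd cells against 74.1 to 135 CPM in itch-marker cells (−3.83, SE 0.33), and cells with Sst or Nppb, of which it is a marker, held 155 CPM. With thinned cells that difference was −2.56 (adjusted p = 0.050).

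Channels of sensory transduction (the TRP, Piezo, ASIC and P2X families) gave 7 higher and 3 lower of 19 against other cells, with a list median of 0.46. The ATP-gated channel gene P2rx3 ranged over mice from 619 to 829 CPM against 67.8 to 223 CPM (2.33, SE 0.13) and Trpc6 differed by 2.17. The irritant receptor gene Trpa1 was higher by 1.80, the mechanically gated channel gene Piezo2 by 0.77 (SE 0.12). Piezo2 ranged from 651 to 1132 CPM in Mrgprd cells and from 71 to 151 CPM in itch-marker cells, a difference of 2.98 (SE 0.17, adjusted p = 9.9e-09). The capsaicin receptor gene Trpv1 was lower in both comparisons. It ranged from 7.06 to 24.3 CPM in Mrgprd cells, from 86.3 to 326 CPM in other cells (−3.30, SE 0.23) and from 65 to 339 CPM in itch-marker cells (−3.25, SE 0.30), with no overlap. The acid-sensing channel gene Asic3 was lower than in other cells by −3.20 (SE 0.28). Cells with Th held 1275 CPM of Piezo2.

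Of 12 tested genes of voltage-gated sodium channels, 2 were higher than in other cells and 8 lower. Scn11a (Nav1.9) ranged from 1138 to 1475 CPM against 385 to 686 CPM (1.17, SE 0.09), with no overlap. Scn10a, whose gene drives the Cre, differed by 0.71 (SE 0.12), and its ranges of 854 to 1271 and 434 to 1295 CPM overlapped. The lower genes included the auxiliary subunit gene Scn3b (−1.61, SE 0.19). Scn9a (Nav1.7) differed by 0.08 and did not pass (adjusted p = 0.46). Against itch-marker cells the Scn11a difference was 0.52 (SE 0.14, adjusted p = 0.023). That call was lost without Blue (adjusted p = 0.055), without Control1 (0.11), without Control2 (0.071) and without Control6 (0.092).

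Potassium and HCN channel genes gave 12 higher and 12 lower of 46 against other cells, and 19 higher and 1 lower of 39 against itch-marker cells (list median 0.76 against 0.10 for all genes). Kcnip4, Kcnip2 and Kcnab1 encode partners of voltage-gated potassium channels and were higher in both comparisons. Kcnip4 ranged from 819 to 1254 CPM against 156 to 362 CPM in other cells (1.92, SE 0.10). Kcnab1 ranged from 282 to 411 CPM against 0 to 6.46 CPM in itch-marker cells (5.93, SE 0.27). The large-conductance channel gene Kcnma1 was higher than in itch-marker cells by 3.69 (SE 0.37), and the lower gene was Kcnj3 (−1.11). Of 10 calcium channel genes tested, 1 was higher than in other cells, near the 9.66% of all genes, and 4 were lower (12.4% of all genes). The higher one was the beta subunit gene Cacnb4, at 304 to 454 CPM against 77.4 to 156 CPM (1.72, SE 0.15). Cacna2d2, an auxiliary subunit gene, was among the 4 lower ones (−2.44, SE 0.41), although its mean in Control1 was 280 CPM, beside 281 CPM in the other cells of that mouse.

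Of 33 genes of G protein and phospholipase C signalling, 16 were higher than in other cells, 5 lower and 12 did not pass (list median 0.29). Against itch-marker cells 8 of 30 were higher, 3 lower and 19 did not pass (list median 0.17 against 0.10 for all genes). The values that follow are against other cells. Rgs10, a regulator of G protein signalling, ranged from 687 to 867 CPM against 242 to 344 CPM (1.42, SE 0.08), and Rgs7 differed by 2.24 (SE 0.15). Gnaq, the G protein alpha subunit that couples receptors to phospholipase C, was higher by 1.31 (SE 0.11), and the diacylglycerol kinase gene Dgkz by 1.46 (SE 0.08). Prkcb, another protein kinase C gene, was lower by −3.99 (SE 0.26).

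Of 22 neuropeptide and granule genes, 14 were lower than in other cells, 5 higher and 3 did not pass. Calca (CGRP alpha) ranged from 93.3 to 516 CPM in Mrgprd cells and from 2424 to 5889 CPM in other cells (−3.75, SE 0.21), yet its paralog Calcb (CGRP beta) was higher, at 422 to 724 CPM against 153 to 337 CPM (1.10, SE 0.15). Neither pair of ranges overlapped. Tac1 differed by −2.80 (SE 0.28) and Scg2, a granin gene, by −4.44 (SE 0.28). The Scg2 mean of 475 CPM in Control was 234 CPM without 1 shallow cell, and the median Control member held 54.2 CPM. Scg3, another granin, ranged from 2293 to 3424 CPM against 600 to 1049 CPM (1.73, SE 0.07). Cpe (1.42), Nmb (1.11) and the prohormone convertase gene Pcsk2 (1.09) were also higher. Of 32 genes of synaptic release, 9 were higher and 9 lower. Synpr, the gene whose promoter is printed above, ranged from 738 to 991 CPM against 110 to 265 CPM (2.08, SE 0.12), and Syt7, a calcium sensor of release, was higher by 1.55 (SE 0.08), while Sv2a was lower by −3.52 (SE 0.30).

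Of 29 transcription factors of the sensory lineage, 5 were higher than in other cells and 8 lower. Runx1 ranged from 499 to 937 CPM against 162 to 371 CPM (1.12, SE 0.12) and from 175 to 295 CPM in itch-marker cells (1.44, SE 0.13), with no overlap. Casz1, a zinc finger gene, was higher by 1.31 (SE 0.18) and 2.24 (SE 0.21). Etv1 ranged from 0 to 19.1 CPM in Mrgprd cells against 123.3 to 418 CPM in other cells (−4.59, SE 0.33). Nfib differed by −2.97 (SE 0.22) and Zeb2 by −2.79 (SE 0.21).

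Glycan genes, which build the cell surface that lectins bind, were higher in 9 of 18 tested and lower in 2 (list median 0.67). Against itch-marker cells 7 of 16 were higher and 9 did not pass. Ggta1, the enzyme that makes the alpha-galactose ends bound by IB4, ranged from 50.9 to 85.9 CPM against 4.55 to 16.4 CPM (2.15, SE 0.20) with no overlap. The sialyltransferase gene St8sia3 was higher by 1.72 (SE 0.14), and A4galt, another galactosyltransferase gene, was lower by −2.93 (SE 0.25). Of 12 genes of extracellular nucleotides and adenosine, 4 were higher, among them Acpp, an AMP-cleaving acid phosphatase that is a classical mark of non-peptidergic neurons, at 826 to 977 CPM against 204 to 489 CPM (1.21, SE 0.12), and the ATP-cleaving enzyme gene Entpd3 (1.01, SE 0.12). Acpp differed from itch-marker cells by 0.38 (adjusted p = 0.083), and Adk, adenosine kinase, was lower there by −1.54 (SE 0.11).

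Of 33 genes of axon guidance and adhesion, 9 were higher than in other cells and 12 lower. Cdh11, a cadherin, ranged from 260 to 379 CPM against 40.5 to 61.4 CPM (2.51, SE 0.11). Cadm1, an immunoglobulin adhesion gene, was higher by 1.51 (SE 0.09). Of 13 genes of axon growth and injury, Basp1 was higher (0.99, SE 0.08) and 7 were lower, among them the growth cone gene Gap43 (−3.88, SE 0.37) and Stmn1 (−1.08, SE 0.08). The Gap43 mean of 178 CPM in Control2 included 1 cell at 1495 CPM, without which it was 13.4 CPM. Neurofilament and intermediate filament genes gave 3 higher of 7, and 4 did not pass. The higher ones included Nefl (0.71, SE 0.10), a call that edgeR (adjusted p = 0.066) and DESeq2 (0.21) did not make.

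Of 23 cytokine receptor and signalling genes, 4 were higher, among them Lifr (1.08, SE 0.09), and 7 lower. Jak1, the kinase of many cytokine receptors, ranged from 116.8 to 139 CPM against 695 to 1683 CPM (−2.89, SE 0.14) and itch-marker cells held 2207 to 2903 CPM (−4.26, SE 0.11, adjusted p = 1.5e-12). Of 8 genes tested from a list of opioid, inhibitory and some other receptors, 5 were lower and 3 did not pass. The lower ones included Npy1r (−3.53, SE 0.32). Immediate early and heat shock genes gave 1 higher of 15 (9.66% of all genes) and 5 lower (12.4% of all genes). The higher one was the early gene Ier3 (1.47, SE 0.20). The lower ones included Egr1 (−1.53, SE 0.21), whose Control mean of 87.4 CPM was 41.5 CPM without 1 shallow cell. Fos was also lower (−0.88, SE 0.15), and its call was lost when cells were thinned (adjusted p = 0.39).

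The itch-marker cells, 31 with Mrgpra3 and 46 with Sst or Nppb, are the neighbouring itch classes. Apart from Gfra2 and Kcnab1, the largest higher differences were Ppm1j (5.26, SE 0.29), Cdh11 (4.83, SE 0.35), Cacnb4 (4.81, SE 0.38), the epithelial cadherin gene Cdh1 (4.74, SE 0.26), the vesicle protein gene Rph3a (4.59, SE 0.37) and the receptor phosphatase gene Ptprt (4.44, SE 0.34). Cdh1 ranged over mice from 365 to 537 CPM in Mrgprd cells and from 4.67 to 24.3 CPM in itch-marker cells. Rph3a ranged from 370 to 437 CPM against 0 to 37.5 CPM. All of these were higher in 6 of 6 mice.

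The lower genes were led by Npy2r, at 0 to 3.44 CPM against 293 to 490 CPM (−6.08, SE 0.26, adjusted p = 4.1e-10), Hpcal1 (−6.02, SE 0.30), Etv1 (−5.97, SE 0.30) and Osmr (−5.85, SE 0.26), a receptor subunit for oncostatin M. Nts, which encodes neurotensin (−5.61, SE 0.31), Resp18 (−5.30, SE 0.31), Il31ra, the receptor for the itch cytokine IL-31 (−5.29, SE 0.48), and Ptprn (−5.08, SE 0.43) came next. Il31ra, Osmr and Nts are among the markers of the Sst and Nppb cells used to describe that class, so their direction is no independent result. The Il31ra mean of 146 CPM in Control rested on 3 counts in the cell of 1153 counts and was 1.59 CPM without it. The 2 itch classes did not share all differences. Npy2r stood at 0 CPM in cells with Mrgpra3 and 633 CPM in cells with Sst or Nppb, and Calca at 5325 and 119.8 CPM, beside 321 CPM in Mrgprd cells. The Calca difference of −2.39 (SE 0.18) therefore joins classes above and below Mrgprd cells, and it became 0.42 (adjusted p = 0.39) with logs averaged over cells. Etv1, by contrast, was high in both, at 738 and 656 CPM. Values for cells with Mrgpra3 are means of 2 mice, those for Sst or Nppb of 5 and that for Mrgprd cells of 6.

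**Figure D3:**
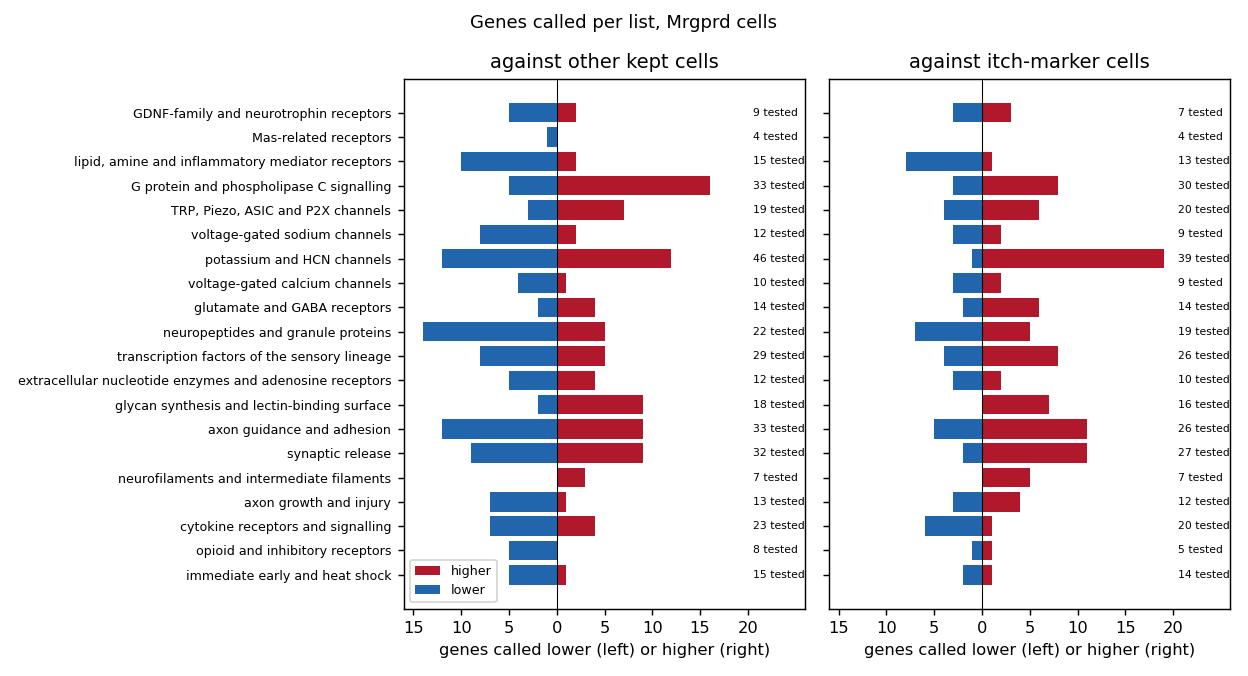
Number of genes called lower (left, blue) and higher (right, red) in Mrgprd cells per list of genes, against other kept cells and against itch-marker cells, with the number tested. Potassium and HCN channels show 12 each way on the left panel and 19 higher with 1 lower on the right.

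Alternatives that left out cells moved both counts, some up and some down. With at least 1000 genes per cell, 2120 genes were called against other cells and 1466 against itch-marker cells. With cells thinned to 10000 counts, which left out 6 members and 24 other cells, 1235 and 779 genes were called against other and itch-marker cells. Without the cells with satellite glia RNA the counts were 1115 and 701. Exons of P2rx3, Jak1, Kcnab1, Cacnb4, Cacna2d2, Nefl, Il31ra and Ptprn overlap those of another annotated gene, and the sources used here do not say whether counting used strand, so their values are uncertain to that extent.

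The spread within the class was described over cells of 1 mouse, as the coefficient of variation (CV, SD over mean) in CPM, taking the median of the 6 mice. The 921 genes whose mean reached 200 CPM had a median CV of 0.349, where counting alone would give 0.321. For 27 genes the CV was over 2 times the counting value. Among the class markers Grik1 had a CV of 0.195, Mrgprd of 0.34, Prkcq of 0.40, Lpar3 of 0.43 and Agtr1a of 0.56. Counting alone would give 0.161, 0.224, 0.344, 0.269 and 0.517 in the same order. Agtr1a and Prkcq were thus near the counting value, and Lpar3 and Mrgprd further above it. The mean of Agtr1a was under 200 CPM, so it is not among the 921 genes. The spread of Mrgprd was limited by the rule that chose the cells.

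**Figure D4:**
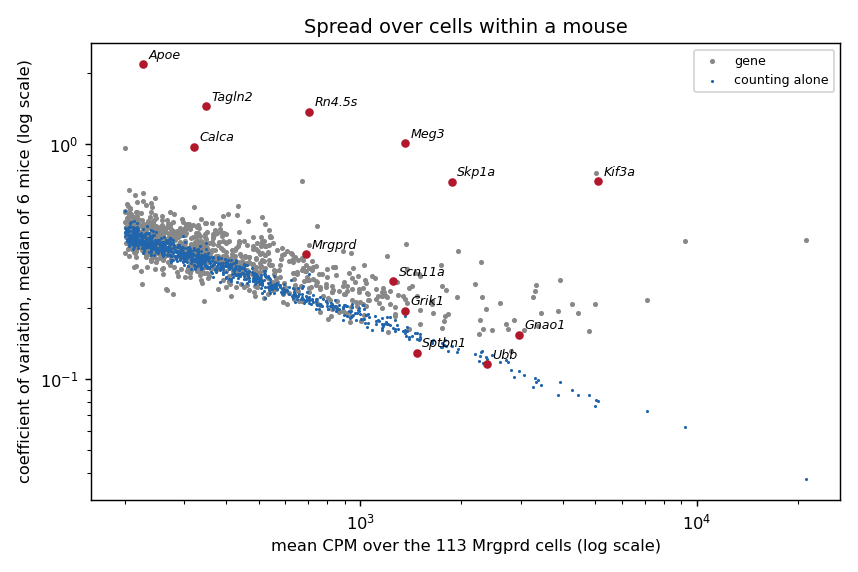
CV over cells within a mouse (median of 6 mice, log scale) against mean CPM (log scale) for the 921 genes with at least 200 CPM in Mrgprd cells; grey points are genes, blue points the CV that counting alone would give, and red points the labelled genes. Labelled genes that stand above most others of like level include Apoe, Tagln2, Rn4.5s, Meg3, Calca, Skp1a and Kif3a. Kif3a is uncertain by its share of fractions.

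Among the 10 genes with the lowest CV, Sptbn1, a spectrin, had a CV of 0.129 and ranged over cells from 665 to 2310 CPM, Gnao1, a G protein subunit, had 0.154 and ranged from 1304 to 4128 CPM, and Calm2, Ywhae, Reep5, Hspa8 and Ppia had values from 0.156 to 0.164. For Sptbn1 and Ywhae counting alone would give 0.148 and 0.172, above the CV found. Ubb (0.115), Actb (0.131) and Tuba1a (0.159) are uncertain, since over 20% of their low values were fractions of a count.

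The highest CV was that of Apoe, a satellite glial marker, at 2.18, with a count in 49 cells, a median of 0 and a maximum of 3323 CPM. It followed the glial marker Fabp7 over cells (Spearman 0.74 over all members; each point is 1 library, and depth differs between them). In the 90 members with less than 500 CPM of glial markers the median CV over genes was 0.313 in the 4 mice that could be used. Skp1a (0.689), a ubiquitin ligase gene, and the small RNA gene Rn4.5s (1.37) were also uneven. Rn4.5s reached 33084 CPM in 1 cell of Control2. Mfsd11, Ccdc36, Timm22 and Kif3a were in the top 10 too but are uncertain by the share of fractions.

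Some genes were present in part of the class and absent from the rest. Tagln2, an actin-binding protein gene, had a CV of 1.45. It was at 0 in 62 members, and its upper quartile was 716 CPM. Cells at 0 held a median of 46163 counts and the others 45959, and the median Mrgprd level was 601 against 721 CPM. Both kinds of cell occurred in every mouse, from 2 of 8 cells with a count in Control1 to 5 of 9 in Control2. Meg3, a maternally expressed long noncoding RNA gene, had a CV of 1.00 and was at 0 in 30 members. Their median depth was 43224 counts, against 47601 counts in the others. Rian, its neighbour in the same imprinted cluster, was at 0 in 35 cells and moved with Meg3 over cells (Spearman 0.83 over all members), though exon overlap with other genes is listed for both. Every other kept cell had a count of Meg3 (100%). The highest Meg3 values, 40772 and 26732 CPM, came from the 2 shallow Control cells, and without them the mean of Control was 1285 CPM in place of 4892 CPM. Meg3 was lower in Mrgprd cells than in other cells by −2.04 (SE 0.18) and Rian by −1.99 (SE 0.19).

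Peptide genes varied among members as well. Calca had a count in all members but 4, with a CV of 0.97, a median of 196 CPM and a maximum of 1909 CPM. Cells with at least 200 CPM were 16 of 32 for Blue, 15 of 35 for Red, 10 of 18 for Control, 0 of 8 for Control1, 5 of 9 for Control2 and 7 of 11 for Control6. Tac1 had a count in 96 members, with a median of 83.7 CPM and 27 cells at 200 CPM or more. Over cells, Calca followed Tac1 weakly (Spearman 0.20 over all members), and its Spearman value with Mrgprd was −0.21. Calcb was steadier, with a count in 98.2% of members, quartiles of 337 and 679 CPM and a median of 477 CPM. Trpv1 had a count in 53 members and reached no more than 98.1 CPM in any of them.

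**Figure D5:**
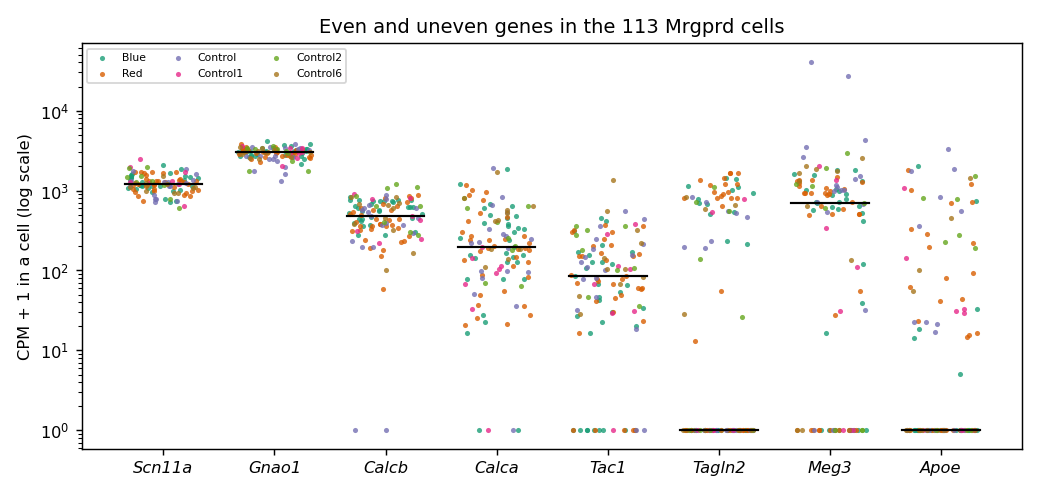
CPM + 1 in each Mrgprd cell (log scale) for 8 genes; points are coloured by mouse and the line is the median. Scn11a and Gnao1 form narrow bands and Calcb a wider one with 2 cells at 0, while Tagln2, Meg3 and Apoe are at 0 in many cells and well above it in others.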

How the data were processed

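Single cells of 6 mice were sequenced. Per the submitters' processing notes, reads were aligned with STAR 2.7.3a to mm10. The deposited signal is a count times a factor of the cell, and the authors' scaling and counting tool are not given in the sources used here. The value of 1 count, the most frequent value of a cell, gave whole multiples (tolerance 0.1) for a median of 96.4% of low values. Whole reads were recovered in 246 of 394 columns. The other 148 entered count alternatives rounded. edgeR 4.0.16 on the recovered counts called 3040 genes against other cells and 2072 against itch-marker cells.

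The tables hold 24781 entries. Rn45s (7.42% of signal) and 26 rows named by dates (0.154%) were dropped before CPM. Of 400 labelled cells 394 had columns, 371 held at least 500 genes (113 of them members), and 6 were not analysed here. The 23 left out held at most 383 counts and no Mrgprd. No column was identical to another, and no doublet caller was run.

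The test was limma 3.58.1 (R 4.3.3) on log2(mean CPM per mouse and class + 5), with mouse as a block, on genes with a mean over both classes of 10 CPM or more and classes of at least 3 cells. Pairing comes from the mouse, since both classes are from the same animal. Benjamini-Hochberg adjustment ran over all genes tested. Mrgprd and the other class markers, and for itch-marker cells Mrgpra3, Sst and Nppb, were not tested. P-values are conditional on the rule for Mrgprd. Mouse is the replicate, as far as the labels tell. Gene positions are from GENCODE vM21 (GRCm38), in which 97.8% of symbols were found.

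Members and gene lists were chosen with earlier results of these data known. Genes named are the 8 largest differences each way (at least 20 CPM, same direction in every mouse), up to 4 per list of smallest p, the class markers, and the 10 highest and lowest CVs at 200 CPM. A few other members of the lists, Meg3's neighbour Rian and Fabp7 were named after their values were seen. Some genes the rule names are not reported here. DESeq2 1.42.0 was an alternative.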

Additional observations from a re-analysis of the deposited data

Results flagged for a closer look

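Of 90 values tested (the share of the class, and named genes whose mean reached 20 CPM in Mrgprd cells), 15 had 1 mouse whose mean stood apart from those of the other mice within Mrgprd cells, by the gap to its nearest neighbour over the whole range of the 6 mice. By chance about 1 in 20 such groups is expected to stand apart if the 6 values are normal, of equal spread and independent between groups. The means here rest on 8 to 35 cells and the genes share those cells, so 15 of 90 cannot be read against that rate. Control1, with 8 cells, gave 8 of the 15: Cacna2d2 at 280 CPM (next 77.9), Cadm1 at 2110 CPM (1810), Gria1 at 106.8 CPM (51.5), Grik1 at 1667 CPM (1375), Lifr at 2030 CPM (1718), Ptprt at 839 CPM (679), Scn2b at 103.6 CPM (13.8) and Stmn1, the lowest, at 324 CPM (426).

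Control gave 5. Il31ra stood at 146 CPM and Mrgpre at 169 CPM, each with 3 counts in 1 cell of 1153 counts, and without that cell the means were 1.59 and 26.3 CPM. Egr1 stood at 87.4 CPM, with 1 count in the same cell, and at 41.5 CPM without it. Rspo2 stood at 583 CPM and Scg2 at 475 CPM, and without 1 cell of 3067 counts they were at 234 and 234 CPM. The median Control member held 54.2 CPM of Scg2. Gap43 stood at 178 CPM in Control2 (13.4 CPM without its highest cell), and Nefm at 1072 CPM in Control6 (next 766 CPM).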

How the results depend on the processing

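Against other cells 1996 genes were called, and against itch-marker cells 1317. These counts were 3040 and 2072 with edgeR, 1115 and 701 without cells with satellite glia RNA, 3131 and 2519 in run 1 alone, 1285 and 716 in runs 2 to 4, and 1235 and 779 with thinned cells. Averaging logs over cells gave 3039 against other cells, 2370 higher and 669 lower (main 875 and 1121; median of all genes 0.28 in place of −0.04), and 1590 higher and 365 lower against itch-marker cells (main 791 and 526; median 0.34 in place of 0.10). There, edgeR gave 1003 higher and 1069 lower, DESeq2 758 and 821, and run 1 alone 1271 and 1248. Leaving out 1 mouse gave 1638 to 2095 and 991 to 1375. Without the mouse as a replicate block, 1738 and 1218 genes were called, and of named genes Egr1 (itch-marker cells) and Fos (other cells) lost the call.

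Of named genes, 3627 values under an alternative kept direction and side of the threshold, 41 lost the call, 27 gained it and 13 changed sign. Calca against itch-marker cells was 0.42 with averaged logs. Gpr35 there was 0.28 with at least 1000 genes per cell, 0.36 with averaged logs and 0.077 with thinned cells, and did not pass in any. Against other cells Mrgpra2a was 0.11 without glial cells, 0.13 with averaged logs, 0.072 in runs 2 to 4, and −0.28 to 0.079 on leaving out 1 mouse (0.036, 0.079 and 0.025 without Control1, Control2 and Red). Mrgpra2b was 0.11 with averaged logs, 0.0095 in runs 2 to 4 and −0.42 to 0.0026 on leaving out 1 mouse (0.0026 without Control2). The cause was not tested. The median CV was 0.442 for genes of at least 100 CPM. Depth limits weak genes: 3 counts equal 0.544 CPM when the counts of all members are pooled. The means over cells used here have no such common floor, since 1 count equals 868 CPM in the shallowest member.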
